A study of Mus musculus with 30 samples.

Results

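The genes described here are 9 proneural and neuronal differentiation factors of the basic helix-loop-helix (bHLH) family, *Neurog1*, *Neurog2*, *Neurog3*, *Neurod1*, *Neurod2*, *Neurod4*, *Atoh1*, *Olig2* and *Nhlh1*. They were taken by symbol from a gene count table of 25400 genes, and all 9 passed the filter on low counts that left 16582 genes for testing. The RNA came from neural progenitor cells (NPCs) at day 8 of an in vitro differentiation of HA36CB1, a mouse embryonic stem cell (ESC) line of mixed 129 and C57BL/6 background. There were 24 poly(A) RNA-seq libraries, 3 from each of 8 lines. WT cells carried both *Mbd3* alleles, and the other 7 lines carried a deletion of *Mbd3* (*Mbd3* KO), which removes a subunit of the chromatin remodelling complex NuRD.

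*Mbd3* KO cells were profiled without a construct and with each of 6 constructs driven by the CAG promoter from one genomic site. The constructs encoded full-length MBD3a, MBD3 without its methyl-CpG binding domain (MBD3ΔMBD), full-length MBD2a, MBD2a without its glycine-arginine stretch (MBD2aΔGR), MBD2a with a point mutation in the methyl-CpG binding domain (MBD2aR181C), and MBD2t, an isoform that ends before the coiled-coil domain. The position in the name R181C is that of the sample labels. The paper and the deposited columns number it differently, and the columns were matched to this line because it was the single point mutant. Libraries of a line came from separately derived clones, except that the 3 MBD2t libraries were repeats of 1 clone, and variation from clone to clone is missing from their spread. Libraries are called s01 to s24 as in the table, and values of a line are listed in that order.

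Proneural bHLH factors bind E-box sequences as dimers with E proteins and switch on genes of neuronal commitment. Neurogenins and *Atoh1* act early and commit progenitors to a neuronal fate, while the Neurod factors and *Nhlh1* act downstream in cells that leave the cycle. Id proteins sequester the E protein partners, and Hes repressors, which respond to Notch signalling, keep proneural genes down in cells that remain progenitors.

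Library depth ranged from 27993858 to 49392806 counts, so 3 counts were worth between 0.0607 and 0.115 CPM (counts scaled to a common library total). As a check of the labels, *Mbd3* was at 149 to 157 CPM in WT and at 34.2 to 73.8 CPM in *Mbd3* KO, so the deletion lowered its reads without removing them. *Mbd2*, counted from the endogenous gene and any part of a construct that maps to it, averaged 45 CPM in WT, 66.8 CPM in *Mbd3* KO and 80.2 CPM in the MBD2a line, against 278 to 477 CPM in the 3 lines with another MBD2 construct. Of 8 neural progenitor markers tested, 8 were called lower in *Mbd3* KO, 7 in MBD2a and 7 in MBD2t than in WT. The 3 libraries with the highest summed pluripotency markers in WT, MBD3a and MBD2aR181C were s03 (179.6 CPM), s08 (142.8 CPM) and s20 (344 CPM). Library s18 of MBD2aΔGR stood apart with endoderm markers at 13630 CPM, against 418.4 to 2925 CPM in the other 23 libraries. Its pluripotency (387.4 CPM) and trophoblast markers (769.7 CPM) were also the highest of its line.

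In WT cells the 9 genes fell into a high and a low group when compared per kilobase of exon (RPKM). *Neurog1*, the most abundant, was at 75.5, 105.9 and 60.4 RPKM, and *Nhlh1* (also called NSCL-1, expressed in newborn neurons) at 63.2, 68.8 and 31.3 RPKM. *Neurog2*, *Neurod1* and *Neurod4* had WT means of 23.5 ± 9.66, 15 ± 4.81 and 14.1 ± 4.74 RPKM (SD, n = 3). The ranges of *Neurog1* and *Nhlh1* overlapped, as did those of *Neurog2*, *Neurod1* and *Neurod4*, while the lowest library of *Nhlh1* lay below the highest of *Neurog2*. *Olig2*, known for ventral progenitors and the oligodendrocyte lineage, averaged 1.97 ± 1.47 RPKM. *Atoh1* (0.472 ± 0.44), *Neurog3* (0.376 ± 0.19) and *Neurod2* (0.136 ± 0.124) lay lowest, with ranges that overlapped each other.

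MBD2 binds methylated CpG dinucleotides, and no methylation was measured in these libraries. The 250 bases upstream of the annotated start are shown for 4 of the genes, chosen because they differ in CpG content and in E-boxes. They were taken from RefSeq on build GRCm38.p6, which is not the build of the counts, and all 9 genes matched, with 10 annotated starts in all. Capitals mark each CANNTG, the E-box core to which bHLH dimers bind, searched as 6 letters that are the same motif on both strands.
Neurog1 (chr13:56252181-56252430, - strand): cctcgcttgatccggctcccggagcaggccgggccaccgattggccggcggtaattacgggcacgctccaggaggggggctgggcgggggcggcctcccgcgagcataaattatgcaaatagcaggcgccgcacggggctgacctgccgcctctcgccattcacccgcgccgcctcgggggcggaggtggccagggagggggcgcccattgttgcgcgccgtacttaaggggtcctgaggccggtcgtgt
Neurod1 (chr2:79456637-79456886, - strand): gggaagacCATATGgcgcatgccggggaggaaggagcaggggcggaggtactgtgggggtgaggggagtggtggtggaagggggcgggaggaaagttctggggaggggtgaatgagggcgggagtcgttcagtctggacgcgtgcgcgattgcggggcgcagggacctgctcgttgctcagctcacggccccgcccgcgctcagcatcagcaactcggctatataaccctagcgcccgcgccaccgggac
Nhlh1 (chr1:172057597-172057846, - strand): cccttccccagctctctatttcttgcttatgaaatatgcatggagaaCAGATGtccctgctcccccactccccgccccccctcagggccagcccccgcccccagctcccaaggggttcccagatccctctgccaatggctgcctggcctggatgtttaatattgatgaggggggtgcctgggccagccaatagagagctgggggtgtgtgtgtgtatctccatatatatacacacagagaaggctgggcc
Neurog3 (chr10:62132840-62133089, + strand): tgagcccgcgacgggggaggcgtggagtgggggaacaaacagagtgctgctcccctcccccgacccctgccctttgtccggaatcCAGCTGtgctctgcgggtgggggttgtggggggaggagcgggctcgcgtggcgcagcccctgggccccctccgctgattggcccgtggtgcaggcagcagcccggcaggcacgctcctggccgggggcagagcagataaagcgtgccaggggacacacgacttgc
An E-box core stood in 4 of the 10 windows, those of *Neurog3*, *Neurod1*, *Neurod2* and *Nhlh1*, against 66.2% of the 32841 windows of the same length in the whole table. The window of *Neurog1* held 29 CpG dinucleotides and that of *Neurod1* held 22, while that of *Nhlh1* held 2. The median over all windows was 6, and 8 of the 10 windows lay above it. A match is a description of the letters and shows no binding.

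Loss of *Mbd3* was followed by very low levels of most of the 9 genes. *Neurog1* (ENSMUSG00000048904, a gene of 1 exon at chr13:56351866-56353524 on mm9), which commits progenitors to sensory and glutamatergic neurons, was at 125.2, 175.7 and 100.3 CPM in WT and at 1.03, 1.86 and 1.96 CPM in *Mbd3* KO. *Neurog2* (ENSMUSG00000027967, chr3:127336054-127338549), which acts in cortical and spinal progenitors, was at 48.3, 75.4 and 33.0 CPM in WT and at 0.343, 0.465 and 0.476 CPM in *Mbd3* KO. For both neurogenins every *Mbd3* KO library lay far below every WT library. The log2 fold change was -6.35 ± 0.58 (SE, edgeR quasi-likelihood test, adjusted p = 1.16e-07) for *Neurog1* and -6.91 ± 0.56 (adjusted p = 3.53e-08) for *Neurog2*. In bulk RNA, fewer cells that express a gene and less of its RNA in each cell cannot be told apart, and this holds for every comparison below.

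The differentiation factors *Neurod4*, *Neurod1* and *Nhlh1* fell too. *Neurod4* (ENSMUSG00000048015, chr10:129705209-129717296), a gene of neuronal precursors, was at 45.8, 63.4 and 31.8 CPM in WT and at 0.143, 0.310 and 0.265 CPM in *Mbd3* KO. *Neurod1* (ENSMUSG00000034701, chr2:79292678-79296908), a factor of early neuronal and endocrine differentiation, was at 43.8, 52.3 and 26.5 CPM against 0.743, 1.51 and 1.61 CPM. *Nhlh1* (ENSMUSG00000051251, chr1:173982423-173987704) was at 155.7, 169.6 and 77.2 CPM against 0.743, 2.39 and 3.54 CPM. All 3 genes were apart by library, and in each the WT library s03 was the lowest of WT. Their log2 fold changes were -7.56 ± 0.64 for *Neurod4* (adjusted p = 5.36e-08), -4.97 ± 0.49 for *Neurod1* (adjusted p = 2.49e-07) and -5.90 ± 0.66 for *Nhlh1* (adjusted p = 8.83e-07). The lineage markers displayed for these libraries in the original work include *Neurog1*, *Neurog2* and *Neurod4*, so their fall is not independent evidence. The gene model of *Neurod1* overlaps *Cerkl* on the same strand and Gm17325 on the other, so its reads are uncertain where the models share sequence.

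*Olig2* and *Atoh1*, each tied to particular progenitor domains, fell from lower starting levels. *Olig2* (ENSMUSG00000039830, chr16:91225795-91228922) was at 2.44, 8.91 and 3.02 CPM in WT and at 0.229, 0.0664 and 0.212 CPM in *Mbd3* KO, a log2 fold change of -4.85 ± 0.81 (adjusted p = 5.24e-05), with s05 at 3 counts. *Atoh1* (ENSMUSG00000073043, chr6:64679140-64681227), known from cerebellar granule cells and hair cells, was at 0.805, 1.98 and 0.170 CPM in WT and at 0.172, 0.0664 and 0.0529 CPM in *Mbd3* KO, of which 2 libraries held 3 counts or fewer. Its log2 fold change of -3.32 ± 0.85 passed the test (adjusted p = 0.00195), but the lowest WT library, s03, lay within the range of the *Mbd3* KO libraries.

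*Neurog3* and *Neurod2* were not called. *Neurog3* (ENSMUSG00000044312, chr10:61595838-61597511), the endocrine neurogenin of pancreas and gut, was at 0.725, 0.770 and 0.244 CPM in WT and at 0.0286, 0.753 and 1.03 CPM in *Mbd3* KO, so the *Mbd3* KO libraries spanned the WT range, with s04 at a single read. The log2 difference of *Neurog3* was 0.12 with a 95% interval from -1.17 to 1.42. Its model overlaps 2010107G23Rik on the other strand, and since the strand setting of the counting is not given in the sources used here, reads of the pair cannot be told apart. *Neurod2* (ENSMUSG00000038255, chr11:98186729-98190962), a factor of maturing neurons, was at 0.859, 0.330 and 0.0974 CPM in WT and at 0.143, 0.111 and 0.159 CPM in *Mbd3* KO, and its log2 difference of -1.61 ran from -3.75 to 0.54.

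In all, 7 of the 9 genes were called lower in *Mbd3* KO than in WT, where 14.2% of all genes tested were called lower, and the other 2 were not called. A gene counted as called when its adjusted p was below 0.05 and its log2 fold change exceeded 1 in size. The libraries of 6 of the genes did not overlap, against 31.1% of all genes apart in that direction. The median log2 fold change of the 9 genes was -4.97, against -0.03 over all genes tested. Markers of whole cell types moved in the same comparison. All 8 neural progenitor and all 10 neuron markers tested were lower, all 8 pluripotency and all 10 trophoblast markers were higher, and 1 of 10 endoderm markers was higher. The share of all genes called higher in this comparison is not reported here. Of 8 pancreatic and enteroendocrine markers 2 were higher and 4 lower, and of 7 oligodendrocyte lineage markers 2 were higher and 1 lower. Summed neural progenitor markers ran from 2300 to 2713 CPM in WT and from 312.9 to 382.2 CPM in *Mbd3* KO, and pluripotency markers from 26.03 to 179.6 CPM and from 358.3 to 1083 CPM. The part of the cell makeup in the fall of the 9 genes was not tested.

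**Figure D1:**
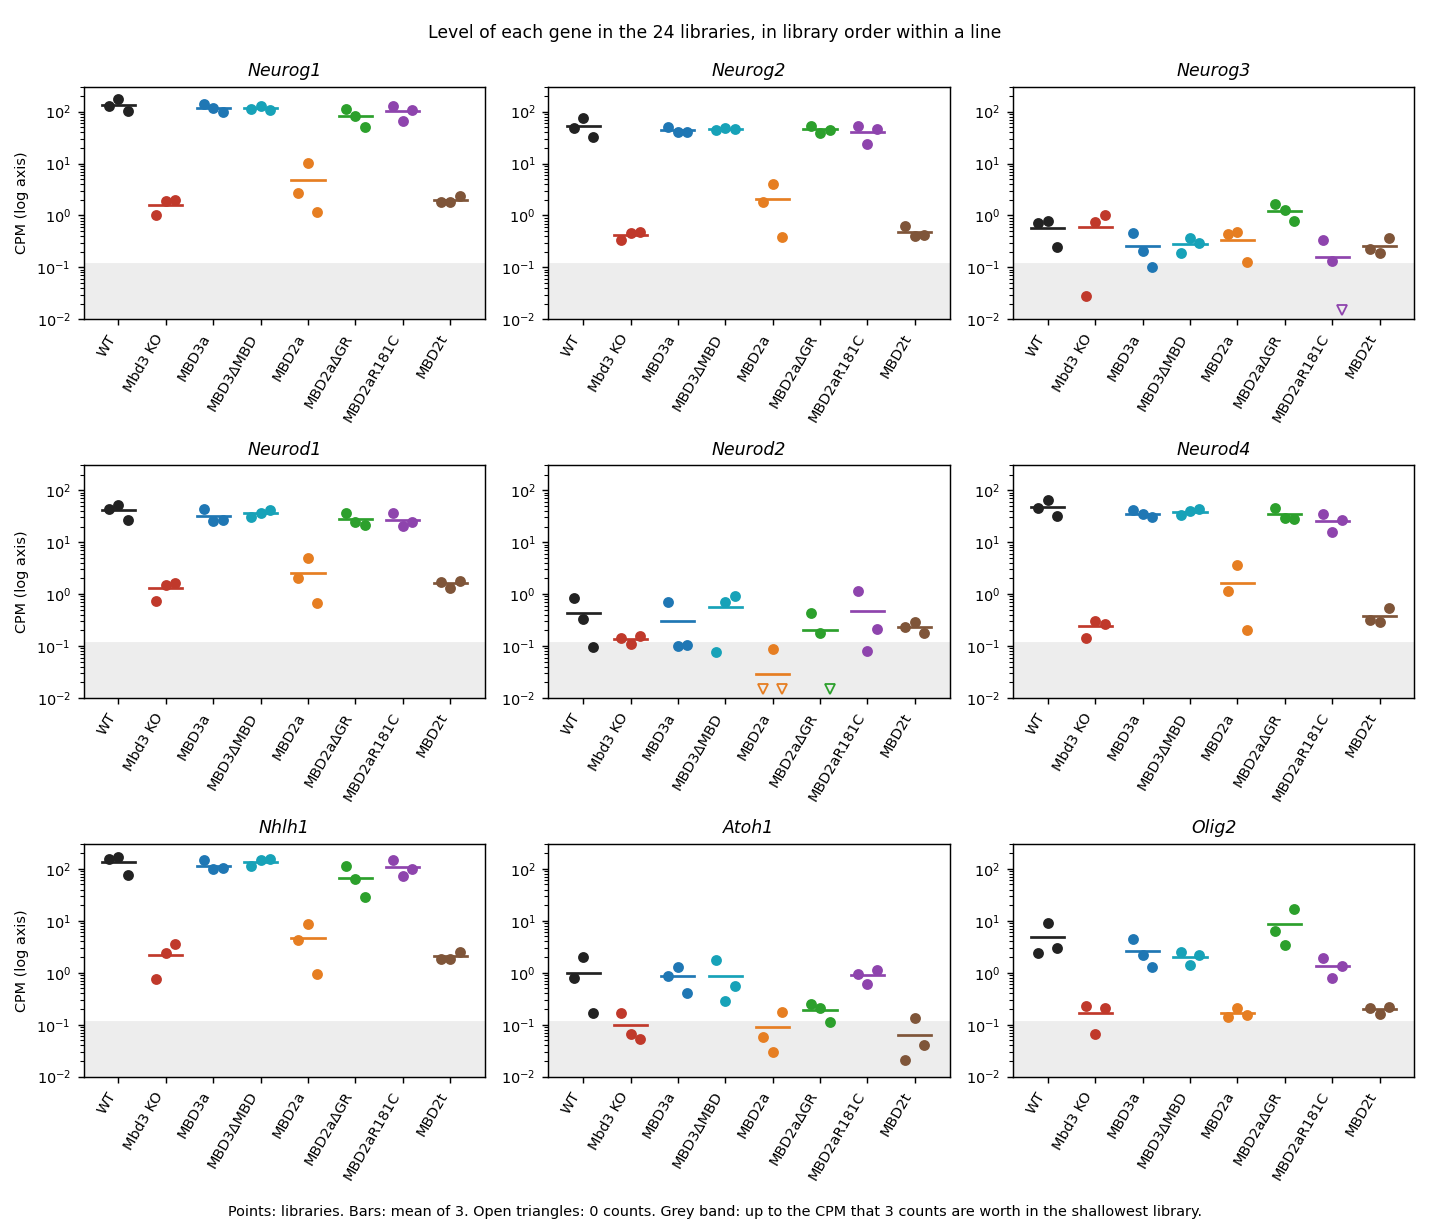
Level of each of the 9 genes in every library on a log axis of CPM, by line, with a bar at the mean of 3 libraries, an open triangle for 0 counts and a grey band up to the CPM of 3 counts in the shallowest library. *Neurog1*, *Neurog2*, *Neurod1*, *Neurod4* and *Nhlh1* are low in *Mbd3* KO, MBD2a and MBD2t and high in the other 5 lines, while *Neurog3* and *Neurod2* show no such separation.

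Constructs were compared with both ends of this range, and these comparisons share the WT or the *Mbd3* KO libraries with each other, so their values are set side by side. With MBD3a, *Neurog1* was at 141.3, 115.7 and 97.0 CPM and *Neurod4* at 40.9, 34.6 and 30.3 CPM. With MBD3ΔMBD, *Neurog1* was at 111.6, 125.1 and 109 CPM and *Neurod4* at 33.4, 39.9 and 42.6 CPM. Every one of these libraries lay above all *Mbd3* KO libraries, and their ranges overlapped those of WT. Against *Mbd3* KO, 7 of the 9 genes were called higher in MBD3a, where 13.5% of all genes were, and 7 in MBD3ΔMBD, where 15% were. The exceptions in both were *Neurog3* and *Neurod2*. Against WT, edgeR called 0 of the 9 in either line, where 0% of all genes were called in MBD3a and 0.0181% in MBD3ΔMBD. At an unadjusted p under 0.05 there were 0 of the 9 in MBD3a (1.77% of all genes) and 1 in MBD3ΔMBD (7.16% of all genes), and DESeq2 called 0 in both.

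No difference between the MBD3 constructs with and without the methyl-CpG binding domain was detectable. MBD3ΔMBD over MBD3a gave 0 calls by edgeR and by DESeq2 among the 9 genes, where 0% of all genes were called, and 0 of the 9 had an unadjusted p under 0.05, which 3.92% of all genes had. The log2 difference of *Neurog1* was -0.03 with a 95% interval from -0.94 to 0.87, that of *Neurog2* 0.07 from -0.70 to 0.85, and that of *Neurod4* 0.13 from -0.70 to 0.96. The intervals of these 3 genes stayed within 1 on the log2 scale in either direction, and those of the other 6 did not. That of *Nhlh1* ran from -0.81 to 1.31, that of *Olig2* from -1.66 to 0.82, and that of *Neurod2* from -0.85 to 2.77. The width of these intervals rests on a spread pooled over all 8 lines, not on that of the MBD3a and MBD3ΔMBD clones alone.

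The MBD2a variants without the glycine-arginine stretch or with the point mutation also carried most of the 9 genes at high levels. *Neurog2* was at 53.5, 39.2 and 44.6 CPM with MBD2aΔGR and at 52.3, 24.1 and 46.3 CPM with MBD2aR181C. *Nhlh1* was at 112.8, 62.4 and 28.3 CPM with MBD2aΔGR and at 149.2, 73.3 and 100.4 CPM with MBD2aR181C. For *Nhlh1* the lowest value of MBD2aΔGR came from s18, the library with high endoderm markers, and the lowest of MBD2aR181C from s20. Both libraries had the most pluripotency markers of their line, at 387.4 CPM in s18 and 344 CPM in s20. The part of these markers in the *Nhlh1* values was not tested. Against *Mbd3* KO, 6 of the 9 genes were called higher in MBD2aΔGR (9.86% of all genes) and 7 in MBD2aR181C (13% of all genes). *Atoh1* made the difference in number, at 0.246, 0.209 and 0.111 CPM with MBD2aΔGR and 0.934, 0.617 and 1.11 CPM with MBD2aR181C.

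Against WT, edgeR called 0 of the 9 in MBD2aΔGR and in MBD2aR181C, where 5.16% and 0.0181% of all genes were called in either direction. An unadjusted p under 0.05 was reached by 1 and by 3 of the 9, and by 26.6% and 3.95% of all genes. DESeq2 called 1 in MBD2aΔGR, *Atoh1*, and 0 in MBD2aR181C. The log2 difference of *Atoh1* in MBD2aΔGR against WT was -2.35 ± 0.76 (edgeR adjusted p = 0.0562), and it passed the threshold without s03 (adjusted p = 0.0174), without s16 (adjusted p = 0.0466) or by DESeq2 (adjusted p = 0.043). Direct comparison of MBD2aΔGR with MBD2aR181C gave an *Atoh1* difference of -2.24 that did not pass (adjusted p = 0.104). No library overlapped, but the share of all genes apart in this comparison is not reported here.

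Full-length MBD2a left the 9 genes near the level of *Mbd3* KO, with wide differences between its clones. *Neurog1* was at 2.65, 10.3 and 1.15 CPM and *Neurog2* at 1.78, 4.10 and 0.382 CPM. *Neurod4* was at 1.15, 3.62 and 0.204 CPM and *Nhlh1* at 4.29, 8.69 and 0.943 CPM. In these 4 genes s14 was the highest and s15 the lowest of the line, and s15 lay within the range of *Mbd3* KO. Mean levels in MBD2a were 3.52% of the WT mean for *Neurog1*, 4% for *Neurog2* and 3.53% for *Neurod4*, against 1.21%, 0.82% and 0.509% in *Mbd3* KO. Summed neural progenitor markers followed the same order of clones, at 443 CPM in s13, 503.7 in s14 and 265.2 in s15, and endoderm markers ran at 2407, 429 and 2925 CPM. Their part in the spread was not tested. *Nhlh1* lies on chromosome 1, where the 728 genes compared had a median log2 deviation from the mean of the other 2 libraries of the line of -0.388 in s15, and of -0.375 in s04 and 0.288 in s06 of *Mbd3* KO.

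Against WT, 8 of the 9 genes were called lower in MBD2a, where 13.7% of all genes were, with log2 fold changes of -4.84 ± 0.53 for *Neurog1* (adjusted p = 1.59e-06), -4.67 ± 0.46 for *Neurog2* (adjusted p = 7.63e-07) and -4.81 ± 0.82 for *Olig2* (adjusted p = 9.46e-05). The eighth call, *Neurod2*, rests on 3 reads in all, with 0, 3 and 0 counts in MBD2a and 48 counts in WT. The ratio of its pooled counts was 0.0664 with an exact interval from 0.0132 to 0.206 that covers counting error only, and the call (adjusted p = 0.0357) was lost without s01, s13, s14 or s15. *Neurog3* was the gene not called.

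Against *Mbd3* KO, 2 of the 9 genes were called higher in MBD2a, where 0.856% of all genes were. They were *Neurog2* with a log2 fold change of 2.24 ± 0.64 (adjusted p = 0.034) and *Neurod4* with 2.71 ± 0.78 (adjusted p = 0.0358). Both overlapped by library, since s15 lay below at least one *Mbd3* KO library, and both calls were lost when s04, s05, s06, s13 or s14 was left out. Without s14 the log2 fold changes were 1.29 for *Neurog2* (adjusted p = 0.312) and 1.41 for *Neurod4* (adjusted p = 0.385). Without s15, 3 of the 9 were called, *Neurog1* among them at 1.97 (adjusted p = 0.0111). In a quasi-likelihood fit of only the 2 lines compared, the adjusted p was 0.22 for *Neurog2* and 0.232 for *Neurod4*.

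MBD2t stayed within or near the range of *Mbd3* KO for every gene of the high group. *Neurog1* was at 1.79, 1.80 and 2.37 CPM, *Neurod4* at 0.312, 0.292 and 0.546 CPM and *Nhlh1* at 1.81, 1.86 and 2.53 CPM. Of the 9 genes, 7 were called lower than in WT (15.1% of all genes), and edgeR and DESeq2 called 0 against *Mbd3* KO, where 0.0241% of all genes were called. An unadjusted p under 0.05 was reached by 0 of the 9 and by 3.44% of all genes. The interval for *Neurog1* against *Mbd3* KO ran from -0.95 to 1.53 on the log2 scale. These p-values rest on a spread pooled over all 8 lines. The MBD2t libraries repeat 1 clone, so they add no clonal differences to that spread, which enters every comparison. MBD2a against MBD2t gave 1 call, *Neurog2* higher in MBD2a at 2.06 ± 0.61 (adjusted p = 0.0494, 0.868% of all genes called higher), which was lost on leaving out any library of either line except s15. Without s15, 3 of the 9 were called.

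**Figure D2:**
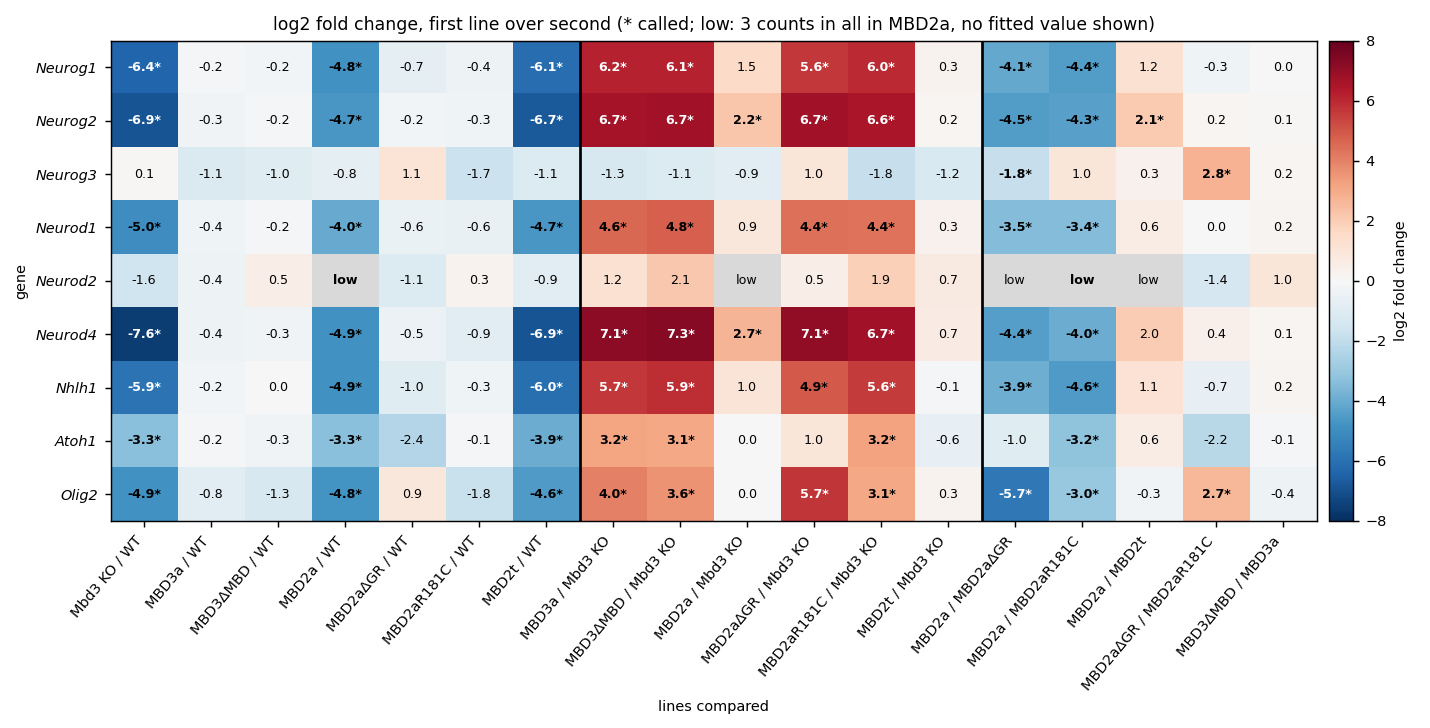
Fitted log2 fold change of each gene in the 18 comparisons, first line over second, with an asterisk on called values and vertical lines between comparisons with WT, with *Mbd3* KO and between constructs. Cells marked low print neither value nor asterisk, because *Neurod2* had 3 counts in all in MBD2a, although 2 of them were called, against WT and MBD2aR181C. Blue columns for *Mbd3* KO, MBD2a and MBD2t over WT stand beside pale columns for the other 4 lines.

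Removing the glycine-arginine stretch or mutating the methyl-CpG binding domain of MBD2a was accompanied by higher levels of most of the 9 genes than full-length MBD2a gave. MBD2a was lower than MBD2aΔGR in 7 of the 9 (8.02% of all genes) and lower than MBD2aR181C in 8 of the 9 (12.2% of all genes). *Neurog1* differed by -4.12 ± 0.51 from MBD2aΔGR (adjusted p = 2.08e-05) and by -4.45 ± 0.52 from MBD2aR181C (adjusted p = 3.88e-06), and in both the libraries were apart. *Olig2* differed by -5.69 ± 0.79 (adjusted p = 4.74e-05) and by -3.02 ± 0.96 (adjusted p = 0.0135), and the second call was lost without s19 (adjusted p = 0.0588). The 7 calls against MBD2aΔGR include *Neurog3*, lost with DESeq2 (adjusted p = 0.0966), with only the 2 lines and without the MBD2t line. It was also lost with the fold threshold inside the test and without s13, s15, s16 or s17. The 8 calls against MBD2aR181C include *Neurod2*, with its 3 reads in MBD2a, which was lost without s13, s15 or s19. The median log2 fold change over the 9 genes was -3.88 and -4.00, against -0.05 and -0.03 over all genes tested. *Mbd2* reads averaged 80.2 CPM in MBD2a, 477 in MBD2aΔGR and 278 in MBD2aR181C, so the lines also differed in this count, and its part was not tested. This is a count of RNA that may cover only part of a construct. At the protein level, the paper reports from Western blots of the ESC lines that MBD2a and MBD2aΔGR were equally expressed.

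The 2 altered MBD2a constructs differed from each other in *Olig2* and *Neurog3*. *Olig2* was at 6.30, 3.40 and 16.6 CPM with MBD2aΔGR and at 1.89, 0.805 and 1.376 CPM with MBD2aR181C. *Neurog3* was at 1.63, 1.25 and 0.776 CPM and at 0.340, 0.134 and 0 CPM. Both genes were called higher in MBD2aΔGR, which 1.28% of all genes were, at 2.67 ± 0.55 for *Olig2* (adjusted p = 0.0174) and 2.80 ± 0.71 for *Neurog3* (adjusted p = 0.041). Their libraries were apart, but the share of all genes apart in this comparison is not reported here. The *Olig2* call was lost without s18 (1.80, adjusted p = 0.179), s19 or s21, and the *Neurog3* call without any of the 6 libraries except s16. The *Neurog3* call was also lost with the legacy form of the test (adjusted p = 0.0838), as was its call in MBD2a against MBD2aΔGR (-1.84, adjusted p = 0.0316, and 0.0951 with the legacy form). Neither gene of MBD2aΔGR was called against WT, where *Olig2* stood at 0.88 ± 0.49 (adjusted p = 0.255) and *Neurog3* at 1.08 ± 0.57 (adjusted p = 0.234). MBD2aR181C against WT gave -1.79 ± 0.56 for *Olig2* (adjusted p = 0.857, libraries apart) and -1.72 ± 0.80 for *Neurog3* (adjusted p = 0.999), and neither was called.

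In s18 the high *Olig2* came with *Nkx6-1*, a ventral neural tube and endocrine gene, at 46.8 CPM, against 7.13 and 2.68 CPM in s16 and s17. The pancreatic and enteroendocrine list that holds *Nkx6-1* summed to 190.6, 108.3 and 107.2 CPM in s16, s17 and s18. That list also holds *Insm1*, which is among the proneural targets. Its sum ran from 108.3 to 227.2 CPM in WT and from 18.75 to 26.03 CPM in *Mbd3* KO. The sum therefore cannot show whether pancreatic genes were raised in s18. *Olig1*, the neighbour and close relative of *Olig2*, was at 2.73, 1.82 and 3.30 CPM in the 3 MBD2aΔGR libraries and at 0.913, 3.05 and 1.31 CPM in WT, with no call between the lines. The 7 oligodendrocyte lineage markers tested had a median log2 difference of -0.15 between MBD2aΔGR and WT. The summed level of that list was 38.2 CPM in s16, 35.9 in s17 and 214 in s18. It did not follow *Olig2* across lines, at 85.67 to 144.9 CPM in *Mbd3* KO, where *Olig2* was low, and 32.92 to 44.7 CPM in WT. Of 10 endoderm markers, 9 were called higher in MBD2aΔGR than in WT, where 5.16% of all genes were called in either direction. Their sum was 1054, 774 and 13630 CPM in s16, s17 and s18, against 487.1 to 632.6 CPM in WT. The part of these markers in the *Olig2* level of s18 was not tested.

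The summed level of the 9 genes gives the spread of clones in a single number. *Neurog1* and *Nhlh1* weigh most in it, with WT means of 134 CPM each against 415 CPM for the sum. *Neurog3*, *Neurod2* and *Atoh1*, at WT means of 0.579, 0.429 and 0.985 CPM, hardly enter it. The sum was 424, 548 and 272 CPM in WT, 429, 318 and 299 in MBD3a and 341.2, 398 and 395 in MBD3ΔMBD. It was 369.9, 240.5 and 190.1 CPM in MBD2aΔGR and 407, 201.3 and 309 in MBD2aR181C. In *Mbd3* KO it was 3.57, 7.53 and 9.31 CPM, in MBD2a 12.5, 32.4 and 3.80 and in MBD2t 6.97, 6.42 and 8.45. The highest value of the low lines, s14, was well below the lowest of the other lines, s18. Within WT, MBD2aΔGR and MBD2aR181C the library with the most pluripotency markers (s03, s18 and s20) had the lowest sum. This was also so in *Mbd3* KO (s04), MBD2a (s15) and MBD3ΔMBD (s10), but not in MBD3a, where s08 was above s09, nor in MBD2t, where s22 was above s23.

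**Figure D3:**
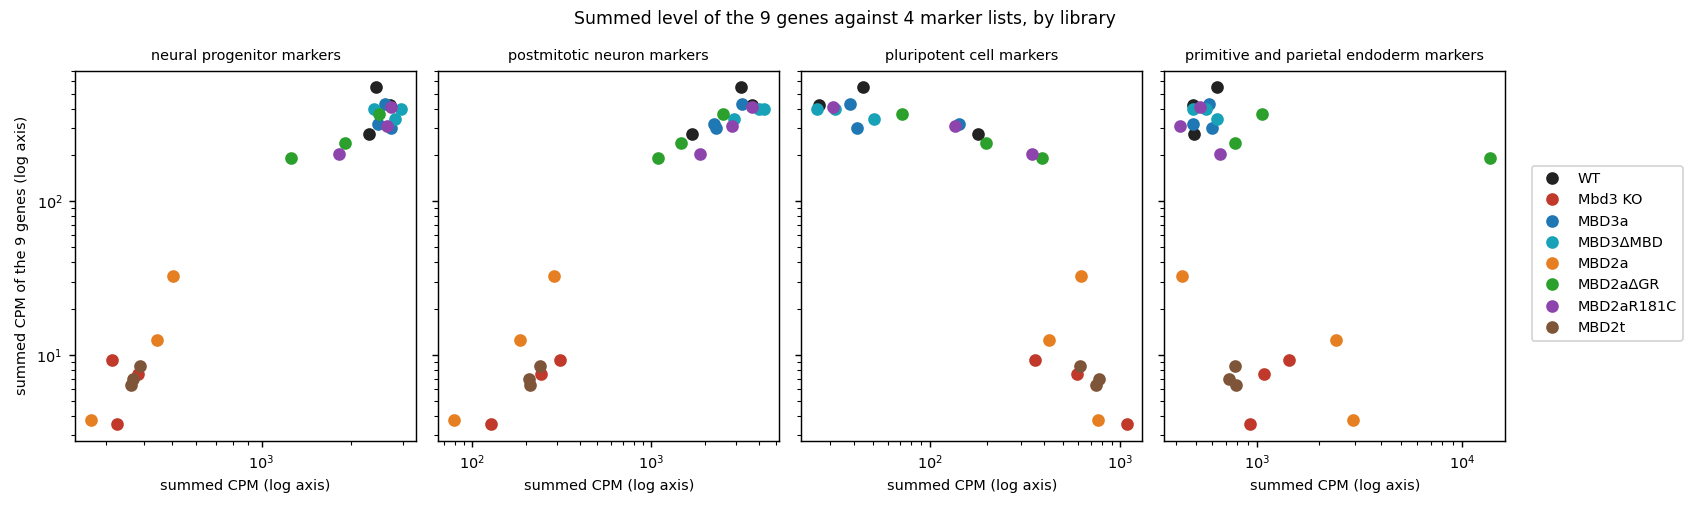
Summed CPM of the 9 genes (vertical, log axis) against summed CPM of 4 marker lists (horizontal, log axes), with 1 point for each of the 24 libraries coloured by line. Libraries of *Mbd3* KO, MBD2a and MBD2t sit at the lower left for neural progenitor and neuron markers and at the lower right for pluripotency markers, and s18 of MBD2aΔGR stands alone at 13630 CPM of endoderm markers.

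Other genes of the pathway were followed through lists drawn up from general knowledge, with some genes on more than one list. Of 10 tested neural bHLH factors outside the 9, 7 were lower in *Mbd3* KO than in WT and 3 were not called. The median over these 10 was -4.26 on the log2 scale. *Nhlh2*, the relative of *Nhlh1*, fell from a mean of 179 to 4.31 CPM (-5.36 ± 0.67, adjusted p = 2.66e-06). *Ptf1a*, a factor of inhibitory neurons and of pancreas, fell from 18.7 to 0.729 CPM. *Atoh8*, *Tal2* and *Msc* were not called. Against WT, 7 of the 10 were also lower in MBD2a, and 1 in MBD2aΔGR, *Bhlhe23* (-1.29). Of all genes tested, 14.2% were called lower than in WT in *Mbd3* KO and 13.7% in MBD2a, and 5.16% in either direction in MBD2aΔGR. Against *Mbd3* KO, 7 of the 10 were higher and 1 lower in MBD2aΔGR, and the median difference in MBD2a was 0.60.

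The dimer partners and their inhibitors changed less. Of the E proteins, *Tcf4* fell by 1.83 ± 0.27 (adjusted p = 1.76e-05) and *Tcf12* by 1.28 ± 0.24 (adjusted p = 0.000177) on the log2 scale in *Mbd3* KO, while *Tcf3* differed by -0.40, short of the fold threshold (adjusted p = 0.00412). Of the Id genes, *Id3*, *Id4* and *Id2* fell by 2.24, 1.70 and 1.23, and *Id1* differed by 0.10 (adjusted p = 0.665). The Id list and the E protein list, which act in opposite directions on proneural factors, thus had 3 of 4 and 2 of 3 genes lower in *Mbd3* KO.

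Of 11 tested Hes, Hey and related repressors, 6 were lower and 3 higher in *Mbd3* KO. *Hes5*, the Notch target of neural progenitors and also one of the progenitor markers, fell from 108 to 0.875 CPM (-6.93 ± 0.47, adjusted p = 5.69e-09), and *Hes3* from 6.24 to 0.121 CPM. *Hes7*, the clock gene of somite formation, rose by 2.60 ± 0.27 (adjusted p = 4.67e-07), and *Bhlhe41* by 2.39 ± 0.35 (adjusted p = 1.24e-05). *Hes1*, which many cell types express, differed by -0.63, within the fold threshold (adjusted p = 0.00129). The 3 genes that rose with loss of *Mbd3* were *Hes7*, *Bhlhe41* and *Heyl*.

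Of 28 genes that proneural factors are known to act on, 19 were lower and 1 higher in *Mbd3* KO than in WT, with a median of -2.82. *St18* (-6.32 ± 0.70), *Elavl4* (-5.79 ± 0.64), *Myt1* (-5.78 ± 0.66) and *Insm1* (-5.63 ± 0.64) had the largest falls, with adjusted p between 7.8e-07 and 1.21e-06. *Dll1*, the Notch ligand that proneural factors induce, fell from 119 to 2.64 CPM (-5.48 ± 0.37, adjusted p = 6.19e-09). The gene that rose, *Eomes* (4.22 ± 0.69, adjusted p = 4.64e-05), is also a trophoblast marker. *Dcx* and *Elavl3* are neuron markers too. In MBD2a 21 of the 28 were lower and 1 higher than in WT, in MBD2t 18 and 1, and in MBD2aΔGR 3 were lower. Of all genes tested, 13.7% were called lower in MBD2a and 15.1% in MBD2t, and 5.16% in either direction in MBD2aΔGR. The median log2 difference of the 28 genes from WT was -0.12 in MBD3a, 0.16 in MBD3ΔMBD, -0.73 in MBD2aΔGR and -0.13 in MBD2aR181C. *Dll4* was lower in MBD2a (-2.95) and in MBD2aΔGR (-1.16), while it differed by 0.40 in *Mbd3* KO.

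**Figure D4:**
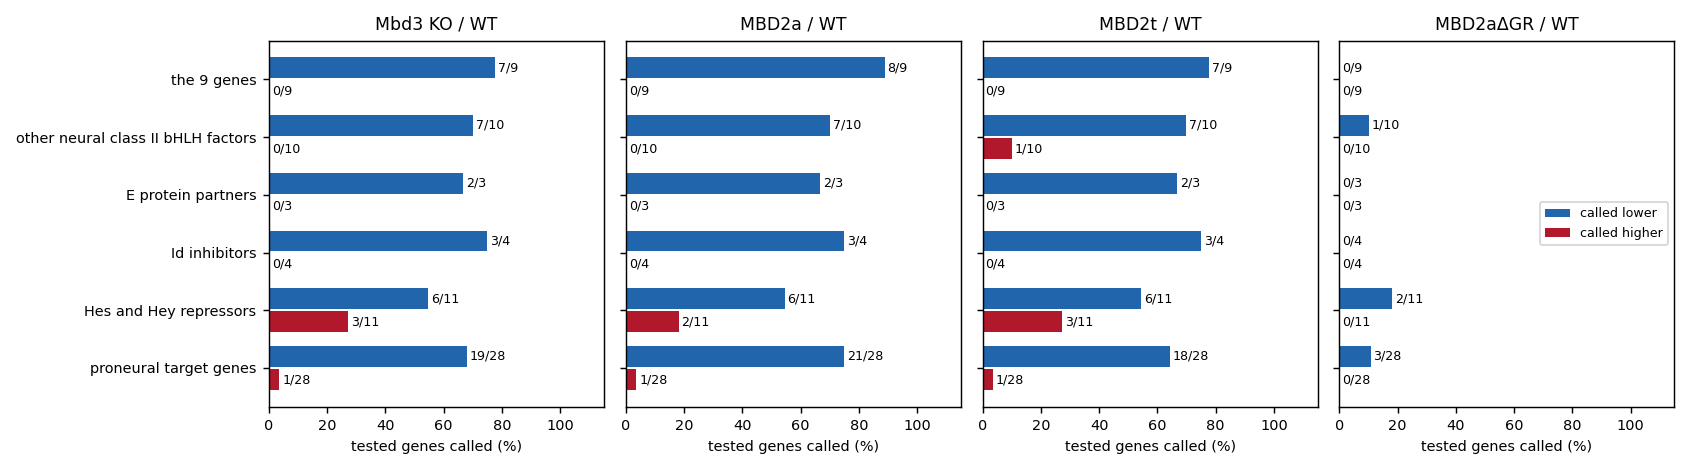
Share of tested genes of each list called lower (blue) or higher (red) than in WT, in percent, for 4 lines, with the number called over the number tested beside each bar. Each list has more genes called lower than higher in *Mbd3* KO, MBD2a and MBD2t. MBD2aΔGR has fewer calls than these lines, such as 2 of 11 Hes and Hey repressors and 3 of 28 target genes. In MBD2aΔGR 5.16% of all genes tested were called in either direction.

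Across the 24 libraries, log2 CPM of *Neurog1*, *Neurog2*, *Neurod1*, *Neurod4* and *Nhlh1* were tightly related, with Pearson r between 0.978 (*Neurog2* with *Nhlh1*) and 0.995 (*Neurog2* with *Neurod4*). These points share lines and libraries, and the values mostly reflect the gap between high and low lines. *Olig2* had r of 0.834 to 0.894 with those 5 genes and *Atoh1* of 0.723 to 0.767. *Neurog3* had r from 0.111 to 0.178 with them, and *Neurod2* from 0.348 to 0.466. The 3 genes most like each of 8 of the 9 were sought among 12809 other genes over the same 24 libraries. They were *Pou3f3*, *Rfx4* and *Hes5* for *Neurog1* (r = 0.995 to 0.992), *St18*, *Insm1* and *Elavl4* for *Neurod1* (0.996 to 0.993), *Scg3*, *Brsk2* and *Scrt2* for *Nhlh1* (0.997 to 0.996), and *Foxb1*, *Srek1ip1* and *Sfrp2* for *Olig2* (0.948 to 0.912). For *Neurog2* they were *Pou3f3*, *Fam181b* and *Stk32a*, for *Neurod4* *Fam181b*, *Pou3f3* and *Sp8*, and for *Atoh1* *Zic2*, *Ddn* and *Zic5*. *Neurog3* was most like AW551984, *Lhx2* and *Foxd2* (0.834 to 0.761). With Spearman's rho in place of Pearson's r, 0 of the 3 genes named for *Neurog1*, *Neurog2*, *Neurod1*, *Neurod4* and *Nhlh1* stayed among the 3 most alike, so these names depend on the measure.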

How the data were processed

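RNA was selected for poly(A), made into directional libraries and sequenced as single-end reads by the authors. Per the labels, reads were trimmed with Trim Galore and aligned with STAR to mm9, and the paper adds counting with qCount of QuasR against a GENCODE annotation. The strand setting of the counting is not given in the sources used here. The table deposited by the authors gives raw read counts for each gene in each library, without normalization, and the counts entered the tests unchanged.

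Genes were kept by filterByExpr of edgeR 4.0.16 (R 4.3.3), scaled by TMM and fitted in 1 quasi-likelihood model of all 24 libraries with the line as the factor. P-values were adjusted by Benjamini-Hochberg over 16582 genes, and calls required an adjusted p below 0.05 and an absolute log2 fold change above 1. 2 forms of this test were run, the legacy form first. After the legacy results were seen, the current form was taken as the main test to match earlier processing of these counts. The paper names edgeR but not the form of test, so this choice is not known to be that of the authors. SE is the absolute log2 fold change over the square root of F. CPM used TMM-scaled library sizes, RPKM also the exon length on mm9, and log2 CPM for correlations a prior count of 1. Named genes were the 9 genes, *Mbd3*, *Mbd2*, genes of the fixed lists, and the 3 genes with the highest Pearson r with each of the 9. Other genes named beside a value of 1 library, and overlapping genes, were chosen after values were seen. The 9 genes and the lists were chosen with earlier results of these data known. The lists were neural bHLH factors, E proteins, Id inhibitors, Hes and Hey repressors, proneural targets, and markers of neural progenitors, neurons, pluripotent cells, endoderm, trophoblast, pancreas and the oligodendrocyte lineage. The test was tried on simulated counts first. Library pairs of a line differed by more than counting noise, with chi-square per gene from 3.32 in MBD2t to 288 in MBD2aΔGR. Alternatives were other scalings, DESeq2 1.42.0, other filters and thresholds, other sets of libraries and leaving out each library. ChIP-seq samples of the study were not analysed here. Some named genes, among them those most like *Neurod2*, are not reported here.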

Additional observations from a re-analysis of the deposited data

How the results depend on the processing

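No paired analysis was possible because the deposited columns carry library numbers and no replicate numbers. Of the counts of called genes among the 9, 14 of 195 moved by more than 1.5 times under the alternatives and 18 of 108 on leaving out 1 library. No fold change that was called changed sign, while some that were not called did, such as *Neurog3* in *Mbd3* KO over WT, from -0.42 to 0.63 on leaving out a library. Of the log2 fold changes, 1678 of 1711 and 924 of 972 kept their side of the threshold. The counts that moved lay in 4 comparisons, and single fold changes crossed the threshold in others too. For MBD2a over MBD2t, 1 call became 2 with DESeq2 and 0 with the fold threshold inside the test, without the low-count filter, with a stricter filter, with RLE scaling or with only the 2 lines, and ranged from 0 to 3 on leaving out a library. For MBD2a over *Mbd3* KO, 2 calls became 0 without the MBD2t line, with the fold threshold inside the test or with only the 2 lines, and ranged from 0 to 3. For MBD2aΔGR over MBD2aR181C, 2 calls became 1 without the MBD2t line or with the legacy test, the form run first. They became 0 with the fold threshold inside the test or only the 2 lines, and ranged from 0 to 2 on leaving out a library. For MBD2aΔGR over WT, 0 calls became 1 with DESeq2 and ranged from 0 to 2 on leaving out a library, being 1 without s03 and 2 without s16. The cause was not tested. Other scalings moved the median of all genes by -0.177 to 0.155 on the log2 scale. *Atoh1*, *Neurod2*, *Neurog3* and, in *Mbd3* KO, *Olig2* lay at or under 3 counts in some libraries, which limits their fold changes. Precision of the rest came from 3 libraries a line and a spread between libraries pooled over all 8 lines. The SE of 1 line thus does not carry its own spread in full. For *Neurod4* the SD of log2 CPM was 2.002 in MBD2a and 0.181 in MBD3ΔMBD, while the SE against WT was 0.50 and 0.39. P-values of the main test measure the pooled spread, and counting intervals cover counting error only.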
